A study of Mus musculus with 4 samples.

Results

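The genes described here are 33 genes of glucose breakdown and of the response to low oxygen, taken by symbol from a table of 24341 genes, and all 33 were in it. By role they were 15 enzymes of glycolysis (hexokinase to pyruvate kinase), 7 genes of the steps beside it (glucose and lactate carriers, the enzymes that tune phosphofructokinase, and those that set the fate of pyruvate), 10 other hypoxia-responsive genes, and Hif1a, the oxygen-regulated transcription factor subunit itself. RNA was sequenced from CAD cells, a mouse catecholaminergic neuronal line, after 5 days without serum in every culture. One group of 2 libraries came from cells given the ACSS2 inhibitor, a quinoxaline urea called ACSS2i, at 20 µM for 24 h, and the other group of 2 libraries from cells given DMSO, the solvent, for 24 h. ACSS2 is the enzyme that turns acetate into acetyl-CoA in the cytosol and nucleus, and the comparison asks how transcript levels differ when it is inhibited. Whether the 2 libraries of a group were separate cultures is not given in the sources used here, so a p-value reflects only how far these libraries scatter, and that scatter may be technical.

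Glycolysis converts glucose to pyruvate in the cytosol, with a small net yield of ATP, and lactate dehydrogenase can then reduce pyruvate to lactate, which leaves the cell through a carrier. When oxygen is scarce, prolyl hydroxylases stop marking the HIF alpha subunits for destruction, and the stabilised factor binds short hypoxia response elements near many glycolytic genes and near genes of blood vessel growth, mitophagy and collagen modification. HIF protein is regulated mainly after translation, so the transcript level of Hif1a is known to be a poor measure of the activity of the factor. Neurons in the brain depend on glucose, and they share this set of oxygen-regulated genes with most other cell types.

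The deposited values were read as FPKM, a measure of fragments scaled by transcript length and library size, and they summed to 558458 and 675716 in ACSS2i replicates 1 and 2 and to 590549 and 590108 in DMSO replicates 1 and 2. Read numbers are not known. The steps between low values put the depth at 0.676 and 0.856 in the ACSS2i libraries and at 0.292 in DMSO replicate 2, relative to DMSO replicate 1, so a read in DMSO replicate 2 was worth 3.43 times its value in DMSO replicate 1. The 15 markers of the cell line summed to 5121 and 4034 FPKM in ACSS2i and to 7819 and 11162 FPKM in DMSO. Chgb, the granule protein chromogranin B, singled out after its values were seen, gave most of these sums, and the other 14 markers summed to 668 and 1525 FPKM in ACSS2i and to 1018 and 1152 FPKM in DMSO. Among the catecholamine enzymes, Th stood at 4.09 and 2.92 FPKM in ACSS2i and at 3.53 and 3.16 FPKM in DMSO. Ddc stood at 0.067 and 3.17 FPKM in ACSS2i and at 2.45 and 3.73 FPKM in DMSO. Dbh, an enzyme of noradrenaline synthesis, stayed under 1 FPKM in all 4 libraries. Of 18 markers of glia, fibroblasts and endothelium, 15 never reached 1 FPKM, and all 18 together summed to 7.12 and 7.17 FPKM in ACSS2i and to 6.30 and 5.87 FPKM in DMSO. In such bulk libraries, fewer cells of a type and less RNA per cell cannot be told apart.

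The 2 inhibitor libraries disagreed on these genes. In ACSS2i replicate 2, 20 of the 31 members with a mean of at least 1 FPKM lay at least log2 1 above the DMSO mean, where 4.27% of all 11486 genes so filtered did. In ACSS2i replicate 1 none did, 0 of 31, against 2.53% of all genes. ACSS2i replicate 2 was the highest of the 4 libraries in 28 of 31 members (30.8% of all genes), and it exceeded ACSS2i replicate 1 by log2 1 or more in 21 of 31 (6.19% of all genes). ACSS2i replicate 1 lay below both DMSO libraries in 14 of 31 members, beside 36.8% of all genes. These differences are on the scale of log2(FPKM + 1), which understates changes of genes at low FPKM. Over the 31 members, the median difference from the DMSO mean was -0.12 for ACSS2i replicate 1, while for ACSS2i replicate 2 it was 1.44, beside 0.0095 and 0.013 over all genes. Between the 2 DMSO libraries no member differed by log2 1 (0 of 31), and the median distance was 0.33, against 1.55 between the ACSS2i libraries. With the sign kept, replicate 2 minus replicate 1 had a median of 0.32 in DMSO and 1.55 in ACSS2i, the same direction. Over all genes these medians were -0.00018 and 0.022.

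**Figure D1:**
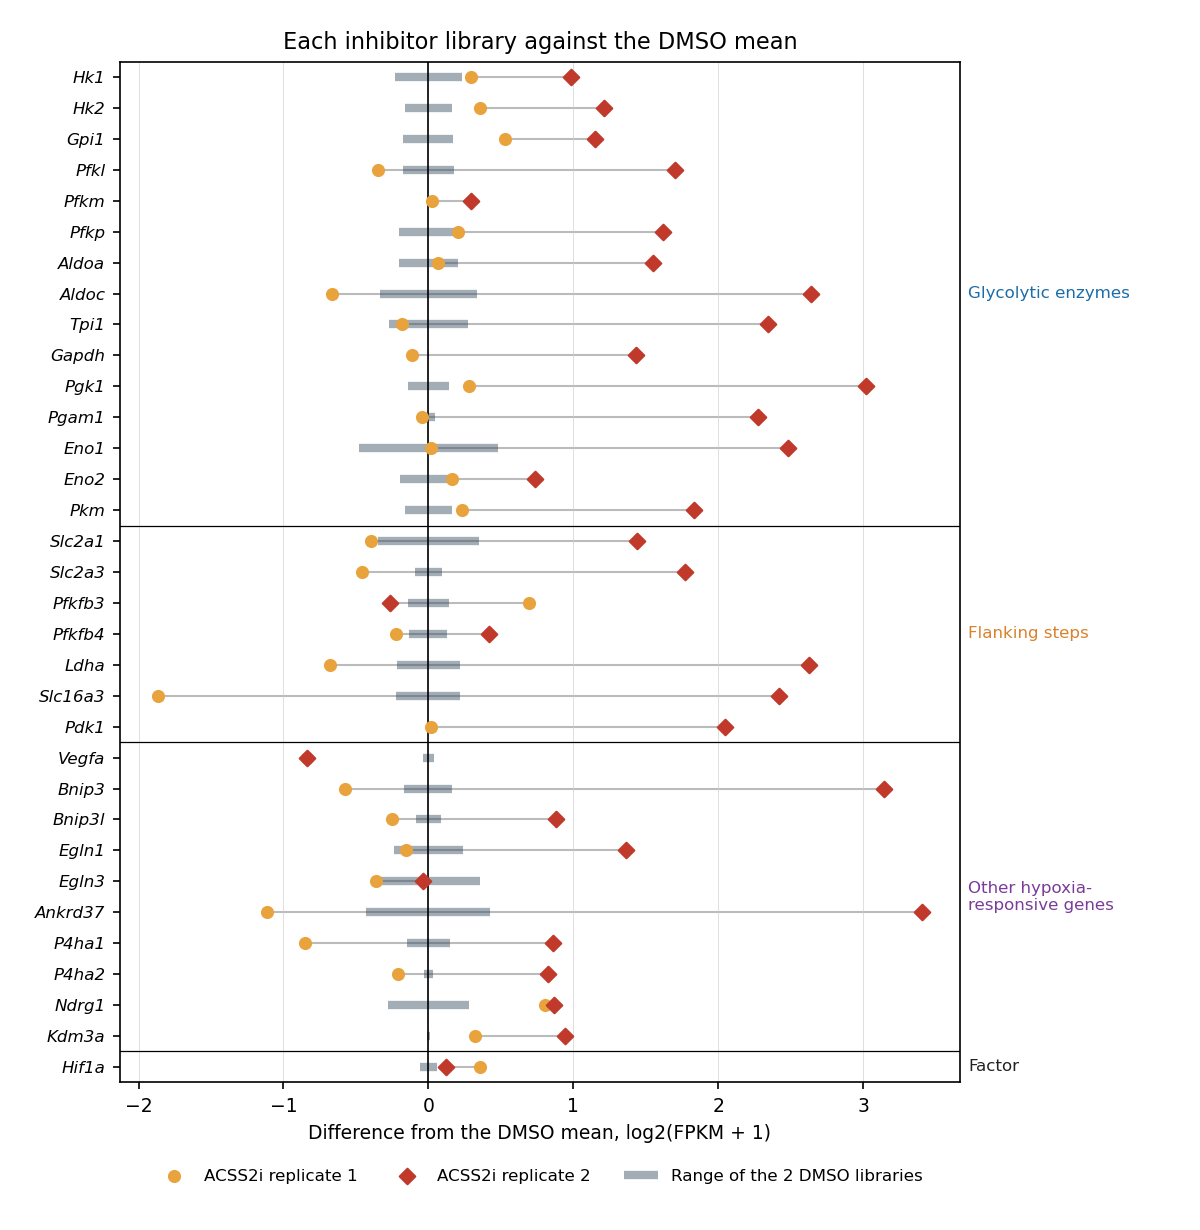
Difference of each inhibitor library from the DMSO mean on log2(FPKM + 1) for the 33 genes by role, with circles for ACSS2i replicate 1, diamonds for ACSS2i replicate 2 and grey bars for the range of the 2 DMSO libraries. The diamonds of 20 genes lie at 1 or beyond and no circle does, and the circle of Vegfa lies under its diamond.

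Tested over both pairs of libraries, none of the 31 members passed limma's adjusted p of 0.05 (0 of 31, with adjusted p from 0.589 to 0.999), where 3 of 11486 genes or 0.0261% passed. At an unadjusted p under 0.05 there was 1 member higher, Gpi1 (3.29% of all genes), and 1 lower, Vegfa (3.67%). With the replicate number as a block there were 6 higher and 1 lower, where 356 and 389 of all 11486 genes were. With 1 library left out, the median log2 fold change of the 31 members ran from -0.12 to 1.44, the highest being without ACSS2i replicate 1. In such a fit only the intact pair gives the spread, so members passing are not counted here. The groups did not overlap in 10 members with ACSS2i higher (19.0% of all genes) and in 1 with ACSS2i lower (18.3%). The log2 fold change was positive in 30 of 31 members (52.2% of all genes), with a median of 0.66 beside 0.020 over all genes. Without ACSS2i replicate 2 it was positive in 14 of 31, and the median was -0.12. Egln3 and Ndrg1 fell below the filter and were not tested, while Pdk1, Aldoc and Pfkfb4 passed it only with ACSS2i replicate 2 (3 of 31 had a mean under 1 FPKM over the other 3 libraries). All 3 of these are among the 28 members highest in that library, and Aldoc and Pdk1 are among the 20 genes high in it. Aldoc and Pdk1 are also among the 21 at least log2 1 above ACSS2i replicate 1 there, and Pdk1 is among the 10 without overlap.

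**Figure D2:**
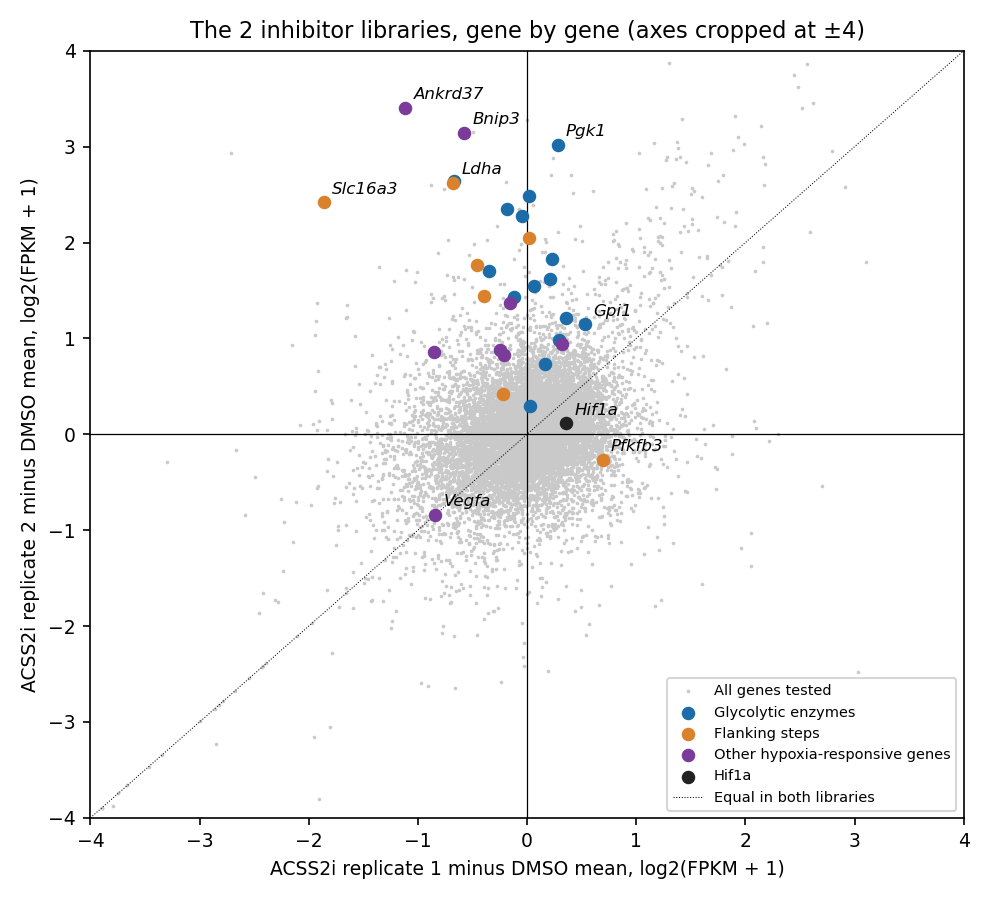
Each gene's difference from the DMSO mean on log2(FPKM + 1), with ACSS2i replicate 1 on the x axis and ACSS2i replicate 2 on the y axis, for 11486 genes in grey (57 lie outside the axes) and the 31 tested members in colour. Most members stand above the cloud near 0 on the x axis, Vegfa lies on the line of equal values below 0, and Pfkfb3 lies to the right and below 0.

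The first stage of the pathway spends ATP to split glucose into triose phosphates. Gpi1, glucose phosphate isomerase, stood at 124 and 192 FPKM in ACSS2i replicates 1 and 2, against 76.1 and 97.0 FPKM in DMSO. Each inhibitor library exceeded each DMSO library, with a log2 fold change of 0.84 ± 0.31 (SE; limma, adjusted p = 0.680). Hk1, the hexokinase of brain and most neurons, stood at 69.7 and 113 FPKM in ACSS2i and at 48.0 and 66.7 FPKM in DMSO, a log2 fold change of 0.64 ± 0.33 (SE; limma, adjusted p = 0.785). Hk2, the hypoxia-inducible hexokinase, stood at 13.7 and 25.7 FPKM in ACSS2i and at 9.33 and 11.9 FPKM in DMSO, a log2 fold change of 0.78 ± 0.34 (SE; limma, adjusted p = 0.742). The hexokinases and Gpi1 were thus separated between groups in both inhibitor libraries, with ACSS2i replicate 1 at 1.22, 1.30 and 1.44 times the DMSO mean for Hk1, Hk2 and Gpi1. Hk1 overlaps the antisense gene Hk1os, which stood at 5.04 and 13.2 FPKM in ACSS2i and at 5.66 and 4.66 FPKM in DMSO, and whether counting used the strand is not given in the sources used here.

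Phosphofructokinase commits the sugar to glycolysis, and its 3 isoforms are described in turn. Pfkp, the platelet type, stood at 57.3 and 154 FPKM in ACSS2i and at 42.9 and 57.0 FPKM in DMSO, a log2 fold change of 0.91 ± 0.48 (SE; limma, adjusted p = 0.785). In ACSS2i replicate 1 it was only just above DMSO replicate 2. Pfkp overlaps Pitrm1 on the opposite strand, which stood at 70.3 and 65.4 FPKM in ACSS2i and at 47.9 and 60.1 FPKM in DMSO, so reads of the pair may be mixed as for Hk1. The members Pfkm, Aldoa, Tpi1 and Gapdh also overlap protein-coding genes on the opposite strand. Pfkl, the liver type, stood at 17.3 and 75.1 FPKM in ACSS2i and at 19.7 and 25.4 FPKM in DMSO, so ACSS2i replicate 1 was the lowest and ACSS2i replicate 2 the highest library (log2 fold change 0.68 ± 0.64, SE; limma, adjusted p = 0.866). Pfkm, the muscle type, stood at 28.3 and 34.3 FPKM in ACSS2i and at 28.1 and 27.6 FPKM in DMSO. The groups did not overlap, but the separation was small, with a log2 fold change of 0.16 ± 0.23 (SE; limma, adjusted p = 0.927).

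Aldoa, the main aldolase, stood at 533 and 1490.5 FPKM in ACSS2i and at 443 and 585 FPKM in DMSO (log2 fold change 0.81 ± 0.52, SE; limma, adjusted p = 0.811). Its brain paralog Aldoc was at 0.380 and 12.7 FPKM in ACSS2i and at 0.738 and 1.76 FPKM in DMSO, at most 0.844% of the summed aldolase values in any library. Its log2 fold change was 0.99 ± 1.02 (SE; limma, adjusted p = 0.881). Tpi1, triose phosphate isomerase, stood at 48.6 and 286 FPKM in ACSS2i and at 45.7 and 67.1 FPKM in DMSO (log2 fold change 1.08 ± 0.78, SE; limma, adjusted p = 0.822). For all 3 genes ACSS2i replicate 1 lay within or below the DMSO range and ACSS2i replicate 2 far above it.

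In the ATP-yielding stage, values in ACSS2i replicate 2 were 1.66 to 8.21 times the DMSO mean. Gapdh, often used as a reference transcript, stood at 628 and 1837 FPKM in ACSS2i and at 680 and 682 FPKM in DMSO (log2 fold change 0.66 ± 0.53, SE; limma, adjusted p = 0.841). The 2 DMSO libraries were nearly equal, ACSS2i replicate 1 was the lowest, and ACSS2i replicate 2 was 2.70 times the DMSO mean. Pgk1, phosphoglycerate kinase, on chromosome X at 106187100 to 106203699, plus strand (mm10 coordinates, GENCODE M21), had the largest log2 fold change among the 31, 1.65 ± 0.83 (SE; limma, adjusted p = 0.785). It stood at 68.8 and 466 FPKM in ACSS2i and at 51.2 and 62.3 FPKM in DMSO. The groups did not overlap, with ACSS2i at 1.21 and 8.21 times the DMSO mean.

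Pgam1, phosphoglycerate mutase, stood at 72.9 and 368 FPKM in ACSS2i and at 77.7 and 72.8 FPKM in DMSO (log2 fold change 1.12 ± 0.71, SE; limma, adjusted p = 0.809). Pkm, pyruvate kinase, stood at 214 and 651 FPKM in ACSS2i and at 162 and 204 FPKM in DMSO (log2 fold change 1.03 ± 0.54, SE; limma, adjusted p = 0.785). The groups overlapped for Pgam1 and did not for Pkm, where ACSS2i replicate 1 was just above DMSO replicate 2. Enolase is carried by Eno1 in most cells and by Eno2, neuron-specific enolase, in mature neurons and neuroendocrine cells. Eno1 stood at 106 and 589 FPKM in ACSS2i and at 74.8 and 146 FPKM in DMSO (log2 fold change 1.25 ± 0.80, SE; limma, adjusted p = 0.810), and Eno2 at 47.0 and 70.4 FPKM in ACSS2i and 36.6 and 48.1 FPKM in DMSO. The retrocopy Eno1b, whose reads can be shared with Eno1, followed it at 101 and 555 FPKM in ACSS2i and 102 and 148 FPKM in DMSO, so the division of reads between these 2 rows is uncertain.

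**Figure D3:**
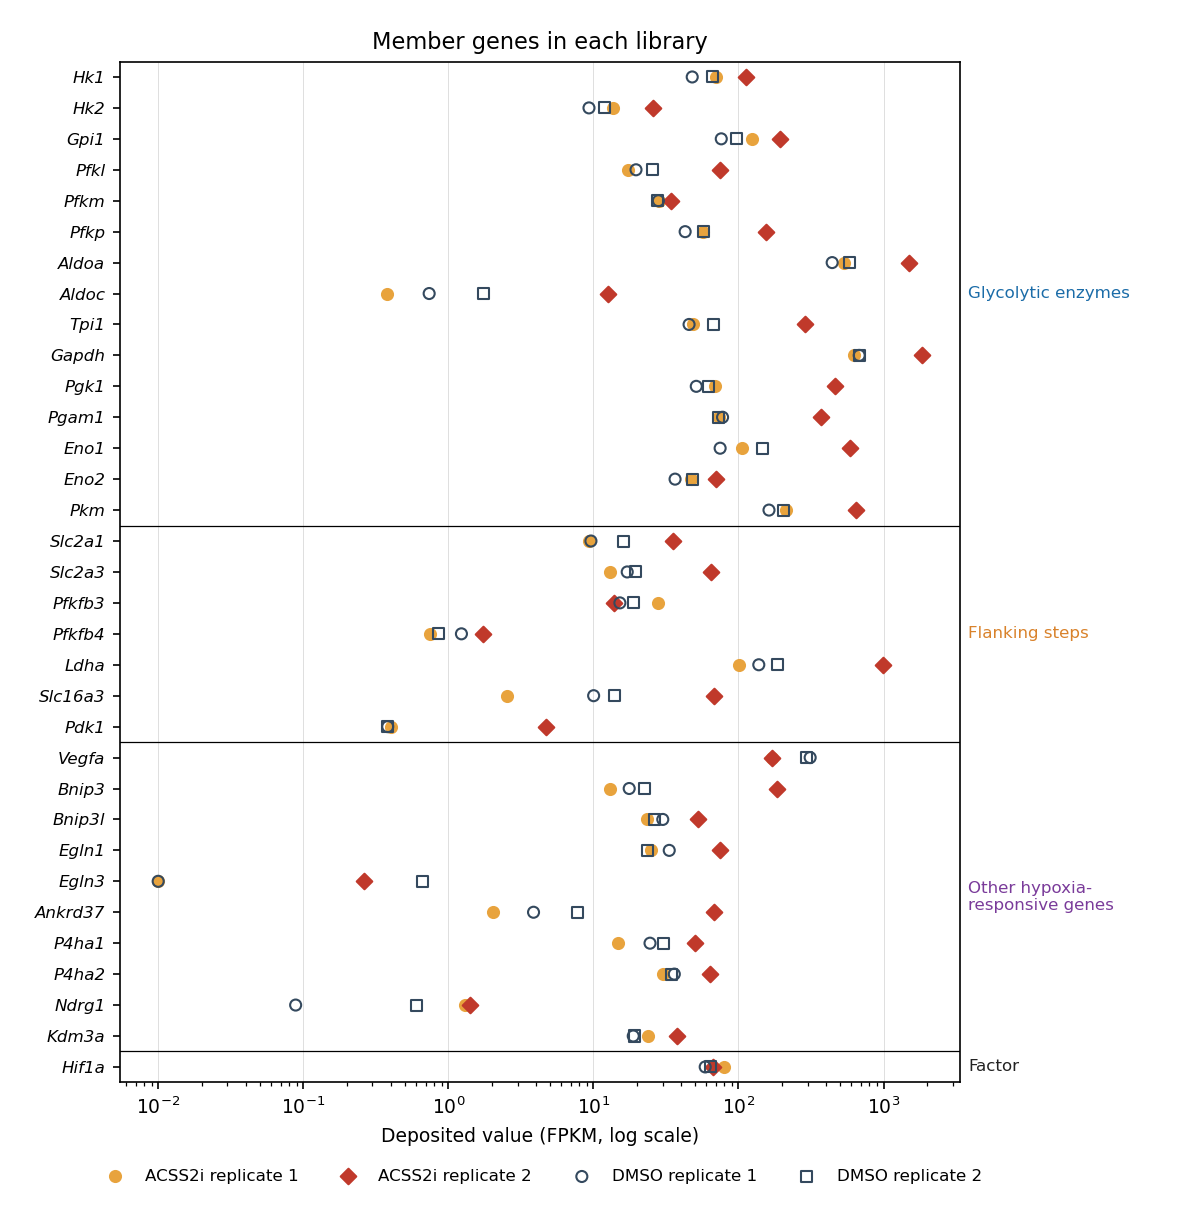
FPKM of the 33 genes in every library on a log axis, with filled symbols for ACSS2i and open symbols for DMSO. ACSS2i replicate 2 (diamonds) is the highest library in all 15 glycolytic enzymes, while ACSS2i replicate 1 (filled circles) lies near the open symbols, and for Vegfa it is hidden under ACSS2i replicate 2.

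As a group, the 15 enzymes took 0.363% and 0.942% of the summed FPKM of ACSS2i replicates 1 and 2, against 0.304% and 0.365% in the DMSO libraries. All 15 were highest in ACSS2i replicate 2 (30.8% of all genes), and 12 of them lay at least log2 1 above the DMSO mean there (4.27%). In ACSS2i replicate 1, 3 of 15 lay below both DMSO libraries, 7 above both and 5 between them. Of all 11486 genes tested, 4224, 4411 and 2851 did so. Their median lay 0.067 from the DMSO mean in ACSS2i replicate 1, and in ACSS2i replicate 2 it lay 1.62 above. The genes with the smallest differences in ACSS2i replicate 2 were Pfkm (0.29), Eno2 (0.73) and Hk1 (0.98), and those with the largest were Pgk1 (3.02) and Aldoc (2.64). Aldoc, also among the 12, passed the filter only with ACSS2i replicate 2.

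Paralog shares showed which isoforms made up the sums. Eno1 was 69.2% and 89.3% of the summed Eno1 and Eno2 values in ACSS2i and 67.2% and 75.2% in DMSO, so Eno2 was down to 10.7% in ACSS2i replicate 2. The retrocopy Eno1b was left out of this sum. The enolase shares, and where ACSS2i replicate 1 lies against DMSO, therefore depend on the uncertain division of reads between Eno1 and Eno1b. Pfkm was 27.5% and 13.0% of the summed phosphofructokinase values in ACSS2i and 31.0% and 25.1% in DMSO. The hexokinase balance hardly differed, with Hk2 at 16.5% and 18.5% in ACSS2i and 16.3% and 15.1% in DMSO. Bnip3 was 35.6% and 77.7% of Bnip3 plus Bnip3l in ACSS2i and 37.0% and 45.8% in DMSO. The shares of Eno1, Pfkm and Bnip3 in ACSS2i replicate 2 lay outside the DMSO range by far, those of Eno1 and Pfkm in ACSS2i replicate 1 lay within it, and no test was run on the shares.

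**Figure D4:**
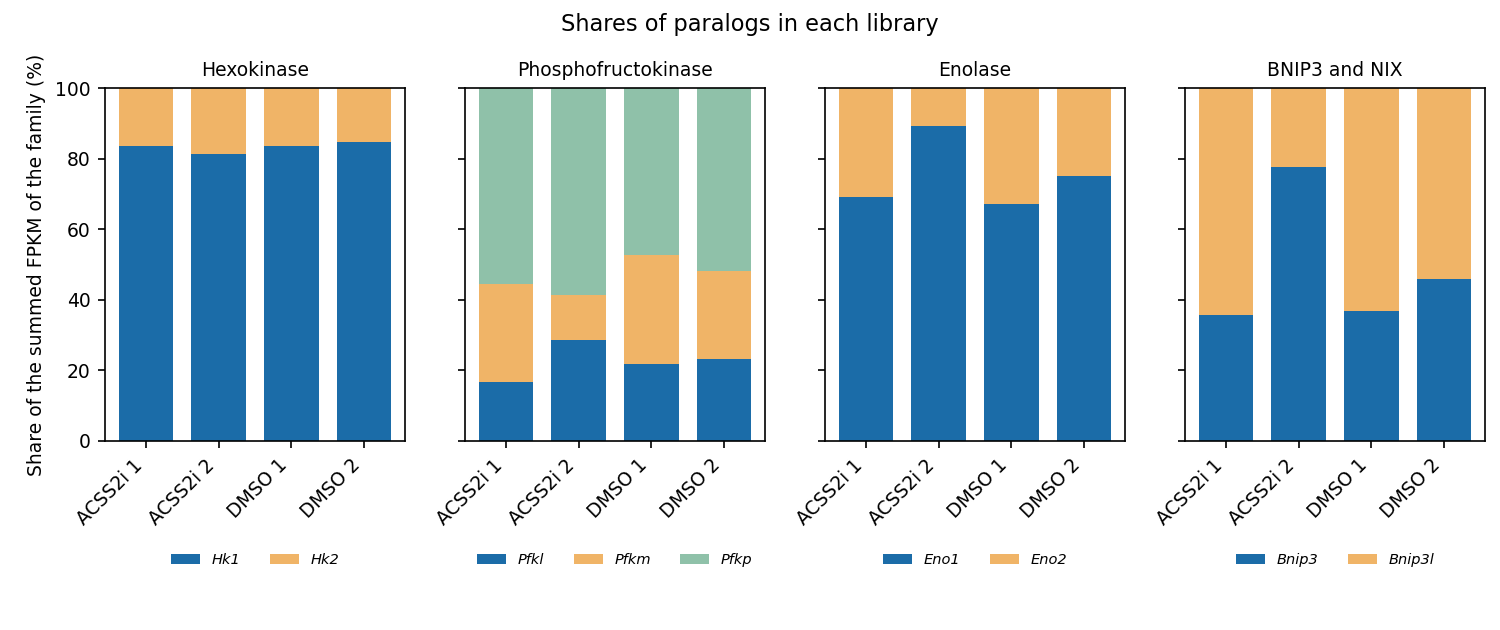
Share of each paralog in the summed FPKM of its family, in percent, for the 2 ACSS2i and the 2 DMSO libraries. The retrocopy Eno1b is not counted in the enolase shares. ACSS2i replicate 2 has the largest shares of Eno1 (89.3%) and Bnip3 (77.7%) and the smallest share of Pfkm (13.0%), while the hexokinase shares are similar in all 4 libraries.

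Glucose enters through facilitative carriers. Slc2a1, GLUT1, the carrier of most cells, stood at 9.29 and 35.6 FPKM in ACSS2i and at 9.62 and 16.2 FPKM in DMSO (log2 fold change 0.52 ± 0.61, SE; limma, adjusted p = 0.903). Slc2a3, GLUT3, the high-affinity carrier of neurons, stood at 13.1 and 65.0 FPKM in ACSS2i and at 17.1 and 19.6 FPKM in DMSO (log2 fold change 0.66 ± 0.68, SE; limma, adjusted p = 0.883). Both carriers were lowest in ACSS2i replicate 1 and highest in ACSS2i replicate 2, at 2.76 and 3.53 times the DMSO mean there.

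Ldha, lactate dehydrogenase A, on chromosome 7 at 46841475 to 46855627, plus strand, stood at 100.1 and 995 FPKM in ACSS2i and at 138 and 186 FPKM in DMSO. The inhibitor libraries thus lay on either side of DMSO, with ACSS2i replicate 2 at 9.94 times ACSS2i replicate 1 (log2 fold change 0.97 ± 0.99, SE; limma, adjusted p = 0.880). Slc16a3, MCT4, which exports lactate, was split most widely of the flanking genes, at 2.53 and 68.0 FPKM in ACSS2i and at 10.0 and 14.0 FPKM in DMSO. In ACSS2i replicate 1 it was 0.211 times the DMSO mean and in ACSS2i replicate 2 5.66 times, and over both the log2 fold change was 0.28 ± 1.27 (SE; limma, adjusted p = 0.979). Pdk1, the kinase that shuts pyruvate out of the mitochondrial dehydrogenase, was at 0.401 and 4.70 FPKM in ACSS2i and at 0.382 in both DMSO libraries (log2 fold change 1.03 ± 0.67, SE; limma, adjusted p = 0.811). It was under 1 FPKM in 3 libraries, and ACSS2i replicate 1 exceeded DMSO by little.

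The bifunctional enzymes Pfkfb3 and Pfkfb4 set the level of the sugar bisphosphate that activates phosphofructokinase. Pfkfb3 was the member with the opposite order, at 27.96 and 13.9 FPKM in ACSS2i and at 15.2 and 18.8 FPKM in DMSO, so ACSS2i replicate 1 was the highest and ACSS2i replicate 2 the lowest library. Pfkfb4 stayed low, at 0.745 and 1.73 FPKM in ACSS2i and at 1.23 and 0.862 FPKM in DMSO. The groups overlapped for both genes. Of the 7 flanking genes, 5 were lowest in ACSS2i replicate 1 (3212 of all 11486 genes). ACSS2i replicate 2 was the highest library for 6 of the 7 (30.8% of all genes). Those 6 include Pdk1 and Pfkfb4, which passed the filter only with that library. The median differences of the 7 from the DMSO mean were -0.39 in ACSS2i replicate 1 and 1.77 in ACSS2i replicate 2.

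Among the other hypoxia-responsive genes, Vegfa, the growth factor of blood vessels and a classical HIF target, stood apart from the rest. It was at 169.2 and 169.4 FPKM in ACSS2i and at 312 and 296 FPKM in DMSO, so both inhibitor libraries were 0.557 times the DMSO mean. The replicates of each group were close, and the log2 fold change was -0.84 ± 0.25 (SE; limma, adjusted p = 0.589, the smallest among the 31). Vegfa lies on chromosome 17 at 46016993 to 46032369, minus strand. No other tested member was lower in ACSS2i without overlap of the groups, and its log2 fold change stayed between -0.88 and -0.80 whichever library was left out.

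Kdm3a, a histone demethylase and HIF target, went the other way in both inhibitor libraries, at 24.0 and 37.4 FPKM in ACSS2i against 18.8 and 19.1 FPKM in DMSO (log2 fold change 0.63 ± 0.28, SE; limma, adjusted p = 0.750). Its groups did not overlap, and it was 1.26 and 1.97 times the DMSO mean. Ndrg1, a stress-responsive protein often induced in hypoxia, was below the filter at 1.31 and 1.41 FPKM in ACSS2i and at 0.0886 and 0.608 FPKM in DMSO, also without overlap. Egln3, a hypoxia-induced HIF prolyl hydroxylase, was listed at 0.01 and 0.262 FPKM in ACSS2i and at 0.01 and 0.661 FPKM in DMSO, 0.01 being the floor of the table.

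The mitophagy receptors and the small inducible genes repeated the split of Ldha. Bnip3, a mitophagy receptor of the outer mitochondrial membrane, on chromosome 7 at 138890836 to 138909519, minus strand, stood at 13.0 and 184 FPKM in ACSS2i and at 17.7 and 22.5 FPKM in DMSO (log2 fold change 1.28 ± 1.10, SE; limma, adjusted p = 0.846). Its relative Bnip3l, NIX, stood at 23.6 and 52.8 FPKM in ACSS2i and at 30.1 and 26.6 FPKM in DMSO. Ankrd37, an ankyrin repeat protein induced by HIF, had the widest split of the 31, at 2.02 and 68.3 FPKM in ACSS2i and at 3.87 and 7.80 FPKM in DMSO (log2 fold change 1.15 ± 1.35, SE; limma, adjusted p = 0.906). In all 3 genes ACSS2i replicate 1 was the lowest library and ACSS2i replicate 2 the highest. Ankrd37 overlaps Ufsp2 on the opposite strand, which stood at 156 and 178 FPKM in ACSS2i and 120 and 113 FPKM in DMSO, so reads of the pair may be mixed as for Hk1.

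Egln1, the main oxygen-sensing prolyl hydroxylase, stood at 25.1 and 74.1 FPKM in ACSS2i and at 33.3 and 23.7 FPKM in DMSO (log2 fold change 0.61 ± 0.51, SE; limma, adjusted p = 0.846). P4ha1 and P4ha2 are the catalytic subunits of collagen prolyl hydroxylase. P4ha1 stood at 14.8 and 50.4 FPKM in ACSS2i and at 24.6 and 30.5 FPKM in DMSO, and P4ha2 at 30.4 and 63.4 FPKM in ACSS2i and at 36.1 and 34.6 FPKM in DMSO. For both subunits the 2 inhibitor libraries lay on opposite sides of DMSO, and the log2 fold change of P4ha1 over both was 0.0043.

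The promoters of 4 members of the flanking and hypoxia-responsive groups are shown because they hold the core letters of the hypoxia response element and belong to the genes of those groups with the smallest p that do. The letters searched were ACGTG and GCGTG on both strands in windows of 250 bases before to 50 after an annotated start (RefSeq, GRCm38.p6), and capitals mark the matches. ACGTG is also part of the E-box CACGTG, and no such E-box was in these 4 windows (0 matches). Kdm3a and Pdk1 have GCGTG alone (1 and 2 matches), and Vegfa and Egln1 have each motif once. The Vegfa window belongs to an internal start, and its upstream window, chr17:46032328-46032627, had no match. The remaining windows of Kdm3a (chr6:71632637-71632936 and chr6:71609090-71609389) and of Pdk1 (chr2:71874654-71874953) had no match either.
Vegfa, chr17:46025114-46025413, minus strand: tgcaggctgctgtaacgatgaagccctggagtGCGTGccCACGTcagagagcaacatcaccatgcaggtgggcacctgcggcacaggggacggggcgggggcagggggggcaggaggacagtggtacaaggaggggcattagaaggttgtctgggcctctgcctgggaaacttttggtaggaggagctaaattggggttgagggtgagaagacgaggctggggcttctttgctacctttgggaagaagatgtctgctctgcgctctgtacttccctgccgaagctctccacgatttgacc
Kdm3a, chr6:71632868-71633167, minus strand: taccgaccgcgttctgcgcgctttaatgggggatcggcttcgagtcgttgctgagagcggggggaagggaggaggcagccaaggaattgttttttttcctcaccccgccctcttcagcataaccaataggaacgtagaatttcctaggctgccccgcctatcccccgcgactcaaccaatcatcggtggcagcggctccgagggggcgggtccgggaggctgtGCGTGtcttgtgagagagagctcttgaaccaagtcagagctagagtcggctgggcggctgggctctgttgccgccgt
Pdk1, chr2:71872974-71873273, plus strand: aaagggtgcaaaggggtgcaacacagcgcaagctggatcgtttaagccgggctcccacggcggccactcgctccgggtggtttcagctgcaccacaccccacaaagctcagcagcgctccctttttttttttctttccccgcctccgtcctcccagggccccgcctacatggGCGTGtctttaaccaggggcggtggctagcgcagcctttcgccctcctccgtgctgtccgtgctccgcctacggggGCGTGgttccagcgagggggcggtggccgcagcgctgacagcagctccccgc
Egln1, chr8:124949205-124949504, minus strand: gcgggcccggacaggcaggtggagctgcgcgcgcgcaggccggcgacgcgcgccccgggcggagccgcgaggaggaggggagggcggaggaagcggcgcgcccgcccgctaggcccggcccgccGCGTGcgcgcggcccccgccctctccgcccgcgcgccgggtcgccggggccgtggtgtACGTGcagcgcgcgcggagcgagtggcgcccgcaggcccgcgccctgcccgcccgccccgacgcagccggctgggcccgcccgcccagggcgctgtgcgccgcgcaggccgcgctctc

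Promoter windows were found for 30 of the 33 members, and none for Bnip3l, Ndrg1 and Slc2a3. At least 1 match stood in 35 of the 46 windows (76.1%), against 63.2% of the windows of tested genes and 43.8% of all windows of the same length. By gene, 12 of 15 glycolytic enzymes, 6 of 6 flanking genes and 8 of 8 other hypoxia-responsive genes with a window held a match in at least 1 of their windows. The shares were 69.3% of tested genes and 46.7% of all genes. A gene with more windows has more places for a match. By window the shares were 72% for the enzymes, 88.9% for the flanking genes and 72.7% for the other hypoxia-responsive genes, beside the 63.2% of tested genes. For Vegfa, lower in ACSS2i, the core letters stood in the window of an internal start and not in the upstream window. They also stood in the windows of Bnip3 and Ankrd37, high in ACSS2i replicate 2 alone. A match is a description of the sequence and was not tested for binding.

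Hif1a, on chromosome 12 at 73901375 to 73947530, plus strand, stood at 79.1 and 66.9 FPKM in ACSS2i and at 59.0 and 64.2 FPKM in DMSO. The groups did not overlap but lay close together (log2 fold change 0.24 ± 0.24, SE; limma, adjusted p = 0.877). ACSS2i replicate 1 had the higher Hif1a value of the pair. In that library 6 of 8 other hypoxia-responsive genes lay below both DMSO libraries (36.8% of all genes). Of 14 other HIF subunits and regulators, 11 passed the filter, 0 had an unadjusted p under 0.05, and none lay log2 1 from the DMSO mean upward in either inhibitor library (0 of 11 in each). The ones with the smallest p were Arnt, the constant partner of the alpha subunits, at 11.98 and 10.6 FPKM in ACSS2i and 9.45 and 8.12 FPKM in DMSO, and Ep300, a coactivator acetyltransferase, at 19.3 and 15.4 FPKM in ACSS2i and 21.2 and 21.5 FPKM in DMSO. Epas1, the alpha subunit HIF2A, was under 1 FPKM in every library.

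Set side by side, the glycolytic enzymes had higher medians than the other hypoxia-responsive genes in each inhibitor library. In ACSS2i replicate 1 the enzymes had a median difference from the DMSO mean of 0.067, and the hypoxia-responsive genes of -0.41. Of the latter, 6 of 8 tested genes lay below both DMSO libraries, beside 36.8% of all genes. In ACSS2i replicate 2 the medians were 1.62 and 0.91. At least log2 1 above the DMSO mean there lay 12 of 15 enzymes and 3 of 8 hypoxia-responsive genes (4.27% of all genes). The 12 include Aldoc, which passed the filter only with that library. Over both libraries the median log2 fold changes were 0.84 and 0.46, and the groups did not overlap, with ACSS2i higher, in 7 of 15 enzymes and 1 of 8 hypoxia-responsive genes, beside 19.0% of all genes. These medians and counts are descriptions, and the difference between the 2 lists was not tested.

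In each further list of the same paths, 0 genes passed the adjusted threshold in limma. Of 15 other glycolytic isozymes and regulators 8 passed the filter, with 0 of 8 at least log2 1 above DMSO in either inhibitor library. Adpgk, a glucokinase that uses ADP, was the only one with an unadjusted p under 0.05, at 21.4 and 23.7 FPKM in ACSS2i and 37.0 and 36.3 FPKM in DMSO (log2 fold change -0.68 ± 0.22, SE; limma, adjusted p = 0.618). Of 12 other lactate and pyruvate genes 6 passed the filter and 0 had an unadjusted p under 0.05. The smallest p were those of Mpc1, a subunit of the mitochondrial pyruvate carrier, at 35.2 and 36.7 FPKM in ACSS2i and 33.4 and 20.2 FPKM in DMSO, and of Gpd1, a glycerol phosphate dehydrogenase, at 1.503 and 1.507 FPKM in ACSS2i and 1.94 and 1.79 FPKM in DMSO.

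The pentose phosphate path, which branches off at glucose phosphate, had 7 of 7 genes above the filter and 6 of 7 positive, with a median difference of 0.089 in ACSS2i replicate 1, while in ACSS2i replicate 2 it was 0.53. Rpia, ribose phosphate isomerase, was higher in both inhibitor libraries, at 23.6 and 20.4 FPKM in ACSS2i and 12.8 and 10.8 FPKM in DMSO (log2 fold change 0.85 ± 0.23, SE; limma, adjusted p = 0.528). Of 35 other hypoxia targets 24 passed the filter, and 9 of 24 lay at least log2 1 above the DMSO mean in ACSS2i replicate 2 (4.27% of all genes), and 2 of 24 in ACSS2i replicate 1 (2.53%). Those 2 were Bhlhe40, also high in ACSS2i replicate 2, and Hmox1, heme oxygenase, named after its values were seen, which split the opposite way at 229 and 56.3 FPKM in ACSS2i and 96.4 and 95.5 FPKM in DMSO. Bhlhe40, a hypoxia- and clock-responsive repressor, stood at 29.9 and 44.7 FPKM in ACSS2i and 11.8 and 14.8 FPKM in DMSO (log2 fold change 1.40 ± 0.28, SE; limma, adjusted p = 0.439). Jmjd6, an oxygen-dependent hydroxylase, stood at 52.6 and 91.1 FPKM in ACSS2i and at 39.7 and 38.9 FPKM in DMSO (log2 fold change 0.80 ± 0.32, SE; limma, adjusted p = 0.708).

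Proliferation genes and markers of the cell line also differed among these libraries. The 4 proliferation markers were higher in both inhibitor libraries without overlap of the groups (19.0% of all genes). None of them passed the adjusted threshold (limma, adjusted p from 0.319 to 0.494). Mki67 stood at 22.2 and 24.9 FPKM in ACSS2i and 1.18 and 4.13 FPKM in DMSO, close to each other within ACSS2i. Of the 4, 3 were at least log2 1 higher in ACSS2i replicate 2 than in ACSS2i replicate 1 (6.19% of all genes). Of the 14 tested markers of the cell line, 10 lay below both DMSO libraries in ACSS2i replicate 1, beside 36.8% of all genes. The median difference of the 14 was -0.67 there, and in ACSS2i replicate 2 it was 0.16. The part of these markers in the split between the inhibitor libraries was not tested.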

How the data were processed

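RNA sequencing of 4 libraries of CAD cells was used, 2 with ACSS2i and 2 with DMSO, grouped by their titles. Tools listed in the submitters' processing notes are STAR 2.3.0, Cufflinks 2.2.1, Cuffdiff and bcl2fastq 02.14.01.07, with the build mm10. Their roles, the annotation and how values were adjusted are not given in the sources used here. No unit is named in the deposited table, whose values were taken as FPKM computed by the authors, with a floor of 0.01. The gene Sept7 held a failure mark and was left out (1 gene), which left 24340.

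Values were compared as log2(FPKM + 1) in limma 3.58.1 (R 4.3.3) with a trended prior variance, over the 11486 genes averaging 1 or more in the 4 libraries. Tests were two-sided at 0.05 after Benjamini-Hochberg adjustment over all of these genes. The fit was tried on simulated data with independent noise and the same shift in both ACSS2i libraries. That setting does not hold the split between the ACSS2i libraries seen in the members, so it does not show how the fit behaves there. An exact permutation test of 2 against 2 cannot go below 0.333. Standard errors are limma's. Relative depth is the most common ratio of values up to 0.5 FPKM to those of DMSO replicate 1. No counts were recovered, so no count test was run. Every member is given in all libraries, with a fold change where the groups do not overlap or it is at least 0.5 in size. Of other lists the genes with unadjusted p under 0.05, or else the 2 smallest, are named. The members and lists were chosen with earlier results of these data known.

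Alternatives were pseudocounts of 0.1 and 5, no filter or a mean of at least 5, quantile and median-ratio scaling, each library left out with the genes kept as filtered over 4, and the replicate number as a block.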

Additional observations from a re-analysis of the deposited data

How the results depend on the processing

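The direction of most members rested on ACSS2i replicate 2. Without it 16 of the 31 members changed sign, while without ACSS2i replicate 1, DMSO replicate 1 or DMSO replicate 2 a single member did in each case (1 of 31), Pfkfb3, P4ha1 and Pfkfb4 in that order. With 1 library left out at a time, the log2 fold change ran from -0.35 to 1.70 for Pfkl, -0.67 to 2.64 for Aldoc, -0.18 to 2.35 for Tpi1, -0.12 to 1.43 for Gapdh, -0.044 to 2.28 for Pgam1, -0.39 to 1.44 for Slc2a1, -0.46 to 1.77 for Slc2a3, -0.26 to 0.69 for Pfkfb3, -0.22 to 0.42 for Pfkfb4, -0.68 to 2.62 for Ldha, -1.86 to 2.42 for Slc16a3, -0.58 to 3.14 for Bnip3, -0.25 to 0.88 for Bnip3l, -0.16 to 1.37 for Egln1, -1.11 to 3.41 for Ankrd37, -0.85 to 0.86 for P4ha1 and -0.21 to 0.82 for P4ha2. P4ha1 also changed sign with a pseudocount of 0.1 (-0.0041), quantile normalization (-0.057) and median-ratio scaling (-0.0036). The other 14 members kept their direction in each alternative that tested them, among them Vegfa, Hk1, Hk2, Gpi1, Pgk1, Pkm, Kdm3a and Hif1a. The size was not always kept. With 1 library left out it ran from 0.28 to 3.02 for Pgk1, 0.23 to 1.83 for Pkm, 0.017 to 2.48 for Eno1 and 0.019 to 2.04 for Pdk1. The range was narrower for Vegfa (-0.88 to -0.80) and Hif1a (0.12 to 0.36). No member reached adjusted p of 0.05 in any alternative (0 of 31), and the smallest was 0.0716, without ACSS2i replicate 1.

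The median log2 fold change with 1 library left out ran from 0.067 to 1.62 for the glycolytic enzymes, -0.39 to 1.77 for the flanking steps, -0.41 to 0.91 for the other hypoxia-responsive genes and -0.12 to 1.44 for all members tested, each low end being without ACSS2i replicate 2. In the other alternatives these medians ran, in the same order, from 0.76 to 0.85, 0.45 to 0.54, 0.41 to 0.47 and 0.61 to 0.67. Those moves were smaller than the spread between replicates (SD 0.77, 1.06, 0.61 and 0.81). That spread includes the split of the ACSS2i libraries and is about as large as the medians or larger, so staying within it is a weak check. No scaling moved the median of all genes by 0.1. Over all genes, 2 were higher and 1 lower at adjusted p of 0.05. With 1 library left out there were 3 to 16 higher and 0 to 18 lower. There were 0 higher and 0 lower with a pseudocount of 5 and with no filter, 4 lower with a pseudocount of 0.1, 1 higher with a mean of at least 5, and 4 higher and 4 lower with the replicate block. At an unadjusted p under 0.05 there were 378 higher and 421 lower, 743 higher with no filter and 229 higher with a mean of at least 5, where the number of genes tested differs. With 1 library left out these were 180 to 967 higher and 158 to 861 lower. In these fits only the intact pair gives the spread, and the lone library is assumed to vary alike, and the cause was not tested. Across all genes tested the deviations of same-numbered libraries correlated at -0.017, so no pairing by replicate number was seen there. That value does not settle pairing for the members, where replicate 2 minus replicate 1 had a positive median in ACSS2i (1.55) and in DMSO (0.32). Pairing among the members was not tested. In this balanced design the block leaves each fold change as it is. It moved the members at an unadjusted p under 0.05 to 6 higher and 1 lower, where without it 1 was higher and 1 lower. Over all genes 356 were higher and 389 lower with the block, beside 378 and 421 without it.

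Depth limits the members at low FPKM, Pfkfb4, Pdk1, Aldoc, Ndrg1 and Egln3, most in DMSO replicate 2.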
